A study of Mus musculus with 2 samples.

Results

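Esrrb encodes an orphan nuclear receptor that, with Oct4, Sox2 and Nanog, belongs to the transcription factors that maintain self-renewal of mouse embryonic stem (ES) cells. It binds DNA at an extended recognition site with the core AAGGTCA, and no natural ligand of it is known. esBAF is the SWI/SNF-family chromatin remodeler of ES cells, and its ATPase Brg1 uses ATP to slide or evict nucleosomes. Micrococcal nuclease (MNase) cuts the linker DNA between nucleosomes, so fragments of mononucleosome size mark where nucleosomes sat.

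The nucleosomes of the Esrrb locus were taken by position alone, as all called nucleosomes whose centre lay on chromosome 12 between 87690000 and 87870000 of mm9, a window of 180 kb that holds the gene with its flanks. The window held 370 of 1300009 called nucleosomes with ethanol and 391 of 1424844 with tamoxifen. Both libraries came from Brg1fl/fl ES cells that carry an Actin-CreER transgene, a Cre recombinase driven by an actin promoter and activated by tamoxifen, so that the controls have the same floxed alleles and the same transgene. The cells were kept on gelatin in serum with LIF. The ethanol group received the vehicle for 24 hours and the tamoxifen group 0.8 µM tamoxifen for 24 hours, followed in both by 48 hours without either. Each group had 1 library, so no test was possible, no p-value is given and no difference between the libraries has a replicate check. Intervals are 95% intervals and cover counting error only. The libraries hold nucleosome positions, so that the loss of Brg1 and the identity of the cells were not checked here.

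RefSeq lists Esrrb (gene ID 26380) as a gene of 160.5 kb on chromosome 12, with 2 start sites 60527 bp apart, in the build GRCm38.p6. That is not the build of the called nucleosomes. Exons and start sites were therefore not placed among the nucleosomes, and positions below are given on mm9 or as the distance from the low-coordinate edge of the window. The 250 bases before each start site are shown because promoters are where nucleosome order is usually described, with each CpG in capitals. Both sequences are from RefSeq, GRCm38.p6, plus strand, at chr12:86360867-86361116 for the first and chr12:86421394-86421643 for the second.
Esrrb first start: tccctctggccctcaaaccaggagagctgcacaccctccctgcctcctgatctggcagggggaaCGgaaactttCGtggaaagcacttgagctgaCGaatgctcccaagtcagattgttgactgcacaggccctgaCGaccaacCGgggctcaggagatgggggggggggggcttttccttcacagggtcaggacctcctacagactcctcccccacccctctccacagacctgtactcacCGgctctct
Esrrb second start: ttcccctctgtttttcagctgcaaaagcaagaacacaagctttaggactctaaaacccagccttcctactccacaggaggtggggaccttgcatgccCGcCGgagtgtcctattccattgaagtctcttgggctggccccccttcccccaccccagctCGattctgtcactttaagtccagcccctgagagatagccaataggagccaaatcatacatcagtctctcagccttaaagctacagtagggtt
The first had a GC content of 60.8% with 6 CpGs and a run of 13 guanines, and the second 52.0% with 3 CpGs, against a median of 52.4% over 32851 promoters cut to the same length. Neither held the Esrrb core AAGGTCA, the octamer ATGCAAAT that Oct4 reads, or the Sox core CATTGT on either strand. Among all promoters, 4.08% held the first motif, 1.60% the second and 10.7% the third.

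The Esrrb locus was densely covered by called nucleosomes in both libraries. In calls per Mb, its density was 2056 with ethanol, with a Poisson interval of 1851 to 2276. After tamoxifen it was 2172 (1962 to 2399). Chromosome 12 as a whole had 816.0 and 898.0 calls per Mb, so the locus stood at 2.52 and 2.42 times its chromosome. Chromosome 12 was cut into 180 kb windows in phase with the Esrrb window, and 654 other windows had at least 20 calls in both libraries together. Their median was 133 calls with ethanol and 145.5 with tamoxifen. Only 15 of them had more ethanol calls than the Esrrb window, and only 14 more tamoxifen calls. Called nucleosomes covered 22.2% of the window with ethanol and 23.6% with tamoxifen, against medians of 8.36% and 9.14% in the other windows.

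The high density was shared with the neighbourhood of the gene. The 5 windows on the low-coordinate side of the Esrrb window held 225 to 326 ethanol calls, and the 5 on the other side 239 to 363. With tamoxifen the ranges were 239 to 339 and 271 to 372. The Esrrb window held more calls than each of these 10 neighbours in both libraries. The next window on the low side had 300 ethanol and 314 tamoxifen calls, and the next on the high side 335 and 341.

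Since many measures of a window follow its density, the Esrrb window was also set beside the 31 other windows of chromosome 12 whose calls in both libraries together came within 10% of its own. They are called windows of like density below.

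The number of nucleosomes called at Esrrb differed little between the libraries. Before scaling, the ratio of calls was 1.06 there and 1.10 over all chromosomes. Scaled to the library totals, the log2 ratio of tamoxifen over ethanol was -0.05 (exact interval -0.26 to 0.16). Chromosome 12 as a whole stood at 0.01 (-0.01 to 0.02). The windows of like density had a median log2 ratio of -0.07 and ran from -0.19 to 0.03, and 11 of the 31 lay above the Esrrb window. Of the other windows of all densities, 26.1% lay below it.

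**Figure D1:**
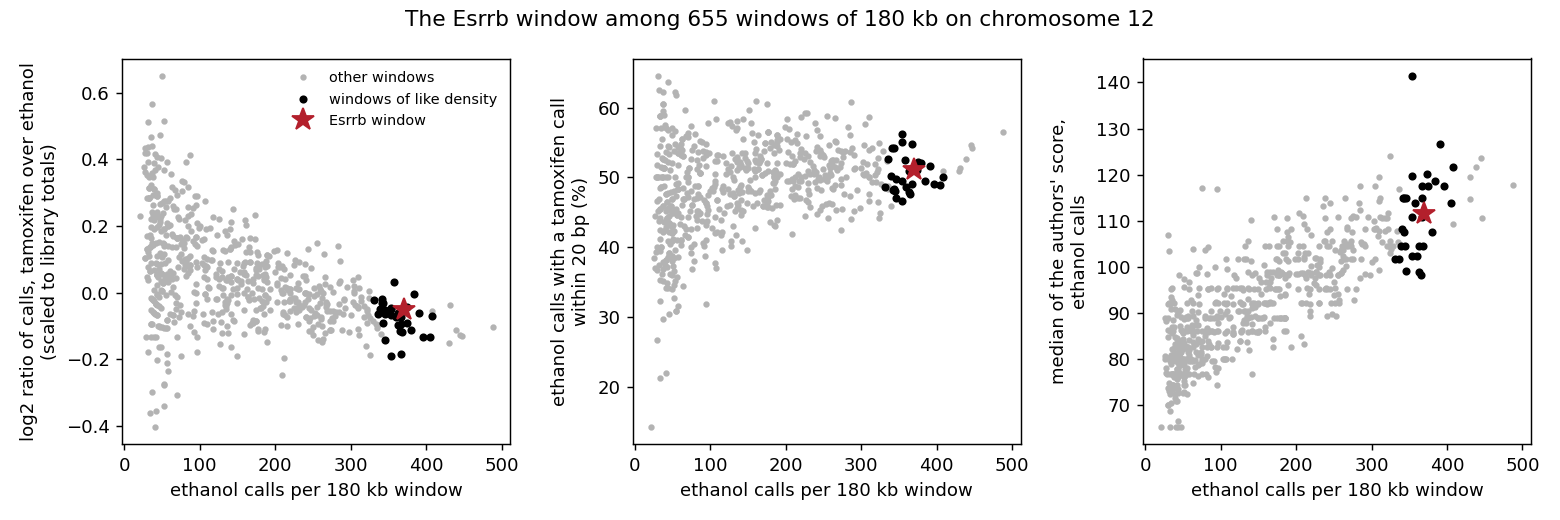
Each point is a 180 kb window of chromosome 12, plotted by its ethanol calls against the scaled log2 ratio of calls (left), the percent of ethanol calls shared with tamoxifen within 20 bp (middle) and the median of the authors' score of the ethanol calls (right). The Esrrb window (star, 370 ethanol calls) lies among the 31 windows of like density (black) in all 3 panels and to the right of most other windows (grey).

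Along the locus the libraries had similar profiles. In 18 bins of 10 kb, the ethanol library had 14 to 28 calls and the tamoxifen library 13 to 27. Both libraries had their lowest bin 100 to 110 kb from the window's edge, with 14 ethanol and 13 tamoxifen calls. The next 2 bins were also sparse, with 18 and 15 calls from 110 to 120 kb and 17 and 16 calls from 120 to 130 kb. With ethanol, the bins from 60 to 70 kb and from 90 to 100 kb held fewer than these, 16 calls each. With tamoxifen they held 26 and 19. The bin from 80 to 90 kb had 27 calls in each library, and the bin from 140 to 150 kb had 28 with ethanol and 25 with tamoxifen.

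No bin of the locus passed a 1.5-fold difference. On chromosome 12, 7285 bins had at least 10 scaled calls. Tamoxifen exceeded ethanol by over 1.5-fold in 6.05% of them and fell short by as much in 4.58%, against 0 of 18 in each direction at Esrrb. Bins elsewhere on the chromosome with as many calls as the Esrrb bins, 27 to 54 in both libraries together, passed in 0.931% and 1.43% of cases, so that 0 of 18 is near that level. The highest scaled ratio was in the bin from 60 to 70 kb, with 16 ethanol and 26 tamoxifen calls, a log2 ratio of 0.57 (exact interval -0.38 to 1.56). The bins from 0 to 10 kb (18 and 23 calls) and from 130 to 140 kb (22 and 27 calls) followed, at 0.22 (-0.73 to 1.20) and 0.16 (-0.70 to 1.04). The lowest ratio, -0.40 (-1.49 to 0.68), was in the bin from 110 to 120 kb. Next came the bin from 140 to 150 kb at -0.30 (-1.13 to 0.54) and the bin from 150 to 160 kb, with 23 and 21 calls, at -0.26 (-1.19 to 0.65). The interval included 0 in each of these 6 bins.

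**Figure D2:**
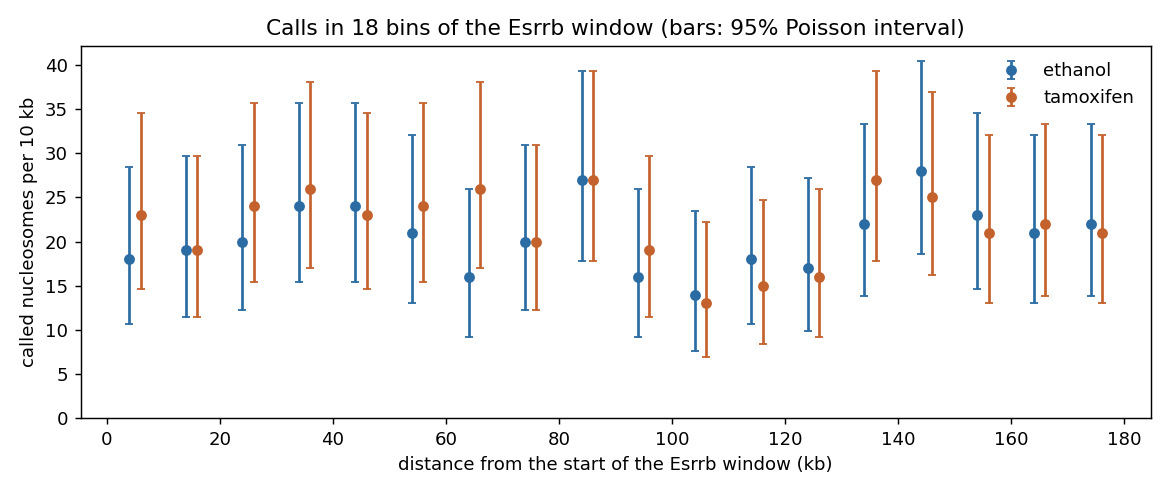
Called nucleosomes per 10 kb bin along the Esrrb window, ethanol in blue and tamoxifen in orange, with 95% Poisson intervals, against the distance from the low-coordinate edge in kb. The intervals of the libraries overlap in all 18 bins, and both libraries are lowest from 100 to 110 kb.

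Of the 5 highest-scoring nucleosomes of the locus, 4 were the same in both libraries. The authors' score of a call has no stated definition and is used here to rank calls within a list. Its median at Esrrb was 111.5 with ethanol (exact order-statistic interval 104.5 to 121.7) and 104.5 with tamoxifen (95.1 to 112.4), against 98.2 over chromosome 12 in each list. Among windows of like density 15 of 31 had a higher median with ethanol and 25 of 31 with tamoxifen, so the score stood near the middle of such windows in the first list and in their lower part in the second. Above the percentile of 90 of their chromosome 12 list were 50 of the 370 ethanol calls at Esrrb, or 13.5% (Wilson interval 10.4 to 17.4%), and 53 of the 391 tamoxifen calls, or 13.6% (10.5 to 17.3%).

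By far the highest score belonged to a wide nucleosome near the low-coordinate side. It was centred at 87709216 with a score of 2149.3 in the ethanol list, where it ranked 27 among the 98951 calls of chromosome 12. In the tamoxifen list it was centred at 87709236, 20 bp away, with a score of 2174.6 and rank 29 of 108883. Its width was 190 bp in both lists, while the median width of calls at the locus was 100 bp in each. Near the other edge, an 80 bp call at 87866641 had the same centre and width in both lists, with scores of 974.7 with ethanol and 813.9 with tamoxifen.

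The other leading calls also had partners. A call at 87731291 scored 917.6 with ethanol, and its tamoxifen partner 5 bp away scored 719.6. A call at 87867676 scored 687.0, and its partner, again 5 bp away, 611.9. These 4 sites were in the top 5 of both libraries. The remaining place went to different sites. With ethanol it was a 150 bp call at 87697436 with a score of 556.1 and rank 928 on the chromosome, whose tamoxifen partner 10 bp away scored 351.0 and ranked 3830. With tamoxifen it was a call at 87787111 with a score of 850.5 and rank 327, whose ethanol partner 10 bp away scored 456.7 and ranked 1623.

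**Figure D3:**
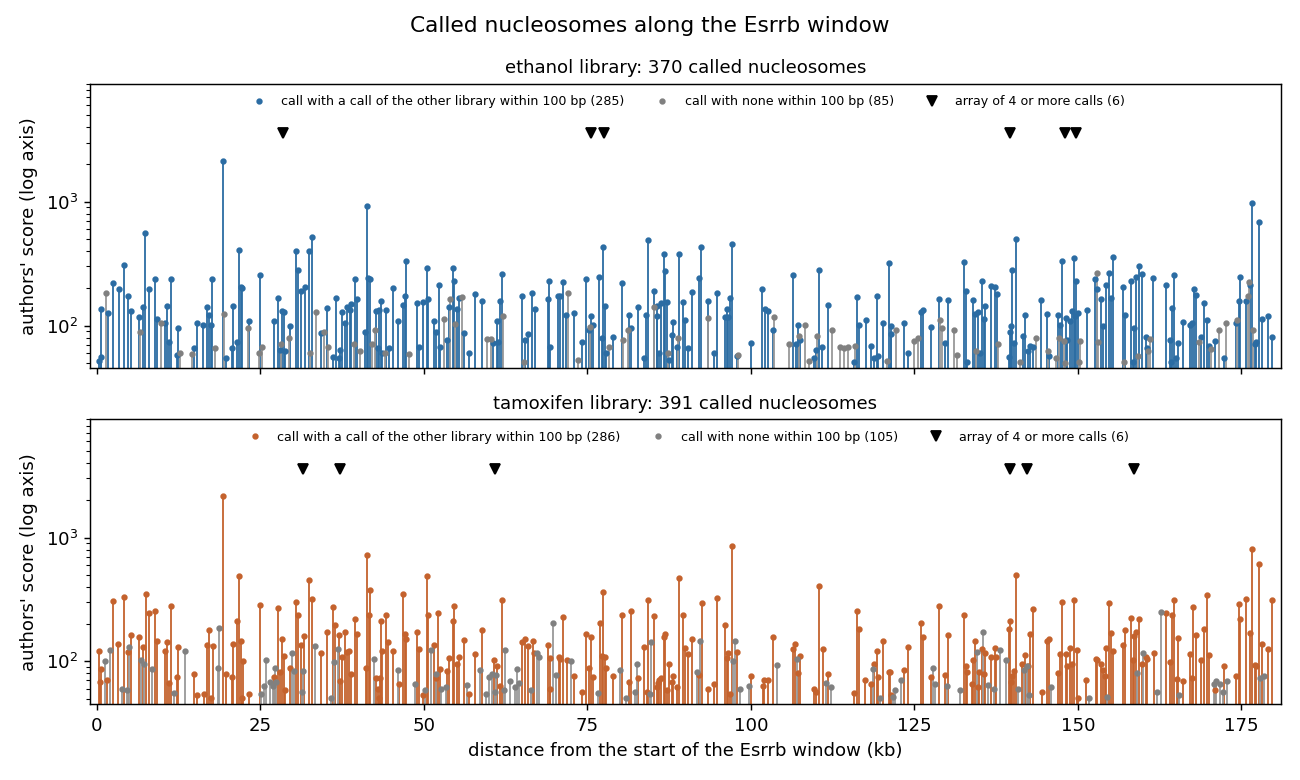
Every called nucleosome of the Esrrb window by its distance from the low-coordinate edge in kb and its score on a log axis, ethanol above and tamoxifen below; stems only guide the eye. Coloured calls have a call of the other library within 100 bp, grey calls have none (85 with ethanol, 105 with tamoxifen), and triangles mark the 6 arrays of each library. The call scoring over 2000 stands at 19.2 kb in both.

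About as many nucleosome positions were shared at Esrrb as elsewhere on the chromosome. A tamoxifen call lay within 20 bp of 189 of the 370 ethanol calls, or 51.1% (Wilson interval 46.0 to 56.1%), where 50.1% of all ethanol calls of chromosome 12 had one. In the other direction the share was 48.3% (43.4 to 53.3%) of the 391 tamoxifen calls, against 45.5% on the chromosome. Windows of like density had a median of 50.0% for ethanol calls, with a range of 46.6 to 56.2%, and 12 of 31 lay above the Esrrb window. For tamoxifen calls their median was 48.4%, and 16 of 31 lay above. The centre was identical for 31 calls, within 10 bp for 127 and within 40 bp for 243. The files give starts and ends on a 10 bp grid, so that centres move in steps of 5 bp and smaller shifts cannot be seen.

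Partners that were not identical lay on both sides. Within 100 bp, the partner of an ethanol call was at a higher coordinate in 119 cases and at a lower one in 135. Sharing was most frequent among high scores. The calls of chromosome 12 were divided by score into 4 classes of about equal size. Among ethanol calls of the highest class, from a score of 152.0 up, 77 of 121 were shared within 20 bp (63.6%, Wilson interval 54.8 to 71.7%), close to the 63.8% of windows of like density. With tamoxifen it was 76 of 105 (72.4%, 63.2 to 80.0%), against 64.5%. In the lowest class 35 of 76 ethanol calls were shared (46.1%, 35.3 to 57.2%) and 23 of 88 tamoxifen calls (26.1%, 18.1 to 36.2%), where windows of like density had 34.6% and 30.0%. The class above it went the other way, at 32.9% (23.2 to 44.3%) of ethanol and 48.9% (38.9 to 59.0%) of tamoxifen calls.

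Nucleosomes called in 1 library alone were mostly of low score. With ethanol, 85 of 370 calls had no tamoxifen call within 100 bp, or 23.0% (Wilson interval 19.0 to 27.5%), and with tamoxifen 105 of 391 had no ethanol call there, or 26.9% (22.7 to 31.5%). Over all of chromosome 12 the shares were 26.0% and 32.7%, and the tamoxifen value lay above the interval at Esrrb. The windows of like density had medians of 22.5% and 25.7%. Scores below the chromosome 12 median of 98.2 made up 64 of these 85 ethanol calls (75.3%) and 76 of these 105 tamoxifen calls (72.4%). Among calls with a partner within 100 bp they made up 85 of 285 (29.8%) and 104 of 286 (36.4%). These shares were not counted for other windows, but score and sharing also went together over chromosome 12. Within 20 bp, 33.9% of its ethanol calls were shared in the lowest score class and 67.3% in the highest. With tamoxifen it was 26.8% and 66.3%. The strongest ethanol call at Esrrb without a partner within 100 bp, at 87842886, scored 263.7. The nearest tamoxifen call was 120 bp away with a score of 101.6. A pair of ethanol calls at 87865971 and 87866136 scored 172.2 and 223.1. The remaining ethanol calls of the leading 5 were at 87762026 (score 183.9) and 87691441 (score 181.7). With tamoxifen the leading call was at 87852686, scored 251.3, and was 765 bp from the nearest ethanol call. A 170 bp call at 87759806 scored 202.3 and was 435 bp from the nearest ethanol call. A call at 87708716 scored 186.5 and lay 500 bp from the ethanol call with the highest score of the locus. The other calls of the leading 5 were at 87825431 (score 172.2) and 87782296 (score 147.1), 120 and 130 bp from ethanol calls with scores of 230.5 and 428.1.

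The longest distance between successive nucleosomes lay in different places in the libraries, while the next longest overlapped. The longest with ethanol was 2905 bp, from 87752081 to 87754986, and 6 tamoxifen calls with scores of 58.2 to 124.1 lay inside it, none within 100 bp of an ethanol call. This stretch is in the bin with the highest tamoxifen ratio, and its 6 tamoxifen calls are counted in that ratio. The longest with tamoxifen was 3625 bp, from 87802216 to 87805841, and held 5 ethanol calls, of which 4 with scores of 65.3 to 92.0 had no partner within 100 bp. It lies in the bin with the lowest ratio, and its 5 ethanol calls are likewise counted there. Next with ethanol came 2205 bp from 87793581 with 1 tamoxifen call inside and 2085 bp from 87756946 with 2. With tamoxifen they were 2475 bp from 87793971, with 2 ethanol calls inside, and 2095 bp from 87797571, with 3. The second-longest distances of the libraries overlapped for 1815 bp, between the centres 87793971 and 87795786 in the sparsest bin, and this was the longest stretch without a call of either library. Where a call is missing, an absent nucleosome and one below the authors' cutoffs cannot be told apart.

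Successive nucleosomes lay close together at Esrrb. The median distance between successive centres was 360 bp with ethanol (exact order-statistic interval 335 to 405) and 352.5 bp with tamoxifen (325 to 375). Over chromosome 12 the medians were 575 and 545 bp, and in windows of like density 355 and 350 bp. Steps of 150 to 230 bp, about 1 nucleosome repeat, made up 26.3% of 369 steps with ethanol (Wilson interval 22.1 to 31.0%) and 25.6% of 390 with tamoxifen (21.6 to 30.2%). In windows of like density the medians were 26.1% and 26.8%. Steps over 2000 bp numbered 3 in each library. Windows of like density had medians of 4 and 3, and the other windows of all densities 22 and 22.5.

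Both libraries had 6 arrays at the locus, but only 1 run counted as an array in both. An array is a run of 4 or more calls in a row in which every step measures 150 to 230 bp. With ethanol, arrays held 29 calls (7.84%, Wilson interval 5.51 to 11.0%) and with tamoxifen 25 (6.39%, 4.37 to 9.27%). Chromosome 12 had 2.82% and 3.24% of its calls in arrays, and windows of like density a median of 6.58% and 7.92%. The longest array was an ethanol run of 7 calls from 87839191 to 87840291, with a mean step of 183.3 bp and scores of 50.8 to 351.8. The tamoxifen library had 4 calls along this run, and 3 of the 7 ethanol calls had a partner within 20 bp.

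A single array was found in both libraries. It had 4 calls and began at 87829441 in each list, and it ended at 87829971 with ethanol and at 87829966 with tamoxifen. Its mean steps were 176.7 and 175.0 bp, and 3 of its 4 positions were shared within 20 bp. The other ethanol arrays began at 87717991 (5 calls), 87765241 (4 calls), 87767251 (4 calls) and 87837636 (5 calls), with mean steps of 192.5 to 208.3 bp. In the array at 87767251 all 4 positions had a tamoxifen call within 20 bp, although those calls did not form an array under the limits used. The other tamoxifen arrays began at 87721186, 87726881, 87750686 and 87831961, each of 4 calls, and at 87848211, of 5 calls, with mean steps of 173.3 to 202.5 bp. Of all calls in arrays, 18 of 29 with ethanol and 14 of 25 with tamoxifen were shared within 20 bp. For all calls at the locus it was 189 of 370 and 189 of 391.

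In the periodicity contrast, a measure of regular spacing, the ratio between the libraries placed Esrrb at the edge of windows of like density. The periodicity contrast is the number of pairs of calls 350 to 410 bp apart, about 2 repeats, over the number 260 to 320 bp apart, between repeats. With ethanol there were 65 and 31 such pairs, a contrast of 2.10 (interval 1.37 to 3.22). With tamoxifen there were 69 and 53, a contrast of 1.30 (0.91 to 1.86). The windows of like density pooled gave 1.41 (1.31 to 1.51) with ethanol and 1.59 (1.48 to 1.70) with tamoxifen, and chromosome 12 gave 1.38 and 1.52. Of the 31 windows of like density, 2 lay above Esrrb with ethanol and 6 below it with tamoxifen. The contrast was thus lower with tamoxifen at Esrrb, while it was higher with tamoxifen over the chromosome.

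The ratio of the contrasts at Esrrb, tamoxifen over ethanol, was 0.621 (interval 0.355 to 1.08). The interval included 1, and pairs share calls, so it is too narrow. Each of the 31 windows of like density had a higher ratio, with a median of 1.10 and a range of 0.76 to 1.88, and 10 of them were below 1. The lowest place depends on the 10% limit of that set. The window beginning at 17490000 has 661 calls in both libraries together, fewer than the limit allows, and its ratio was 0.614. Of the other windows of all densities that had a ratio, 14.8% lay below Esrrb, and these include windows with few pairs. Among the 126 other windows with at least 20 pairs 260 to 320 bp apart in each library, 1 was at or below Esrrb. Esrrb is 1 window described by 37 measures, so an extreme place in 1 of them has little weight. When each list was limited to its upper part, from the median score up, the ratio was 1.01. The libraries differed most in the pairs between repeats. Of the 31 ethanol pairs 260 to 320 bp apart, 28 were direct neighbours and 3 had a call between them. Of the 53 tamoxifen pairs, 42 were direct neighbours and 11 had a call between them. Among pairs 350 to 410 bp apart, 38 of 65 with ethanol and 48 of 69 with tamoxifen were also direct neighbours, with no call between them.

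**Figure D4:**
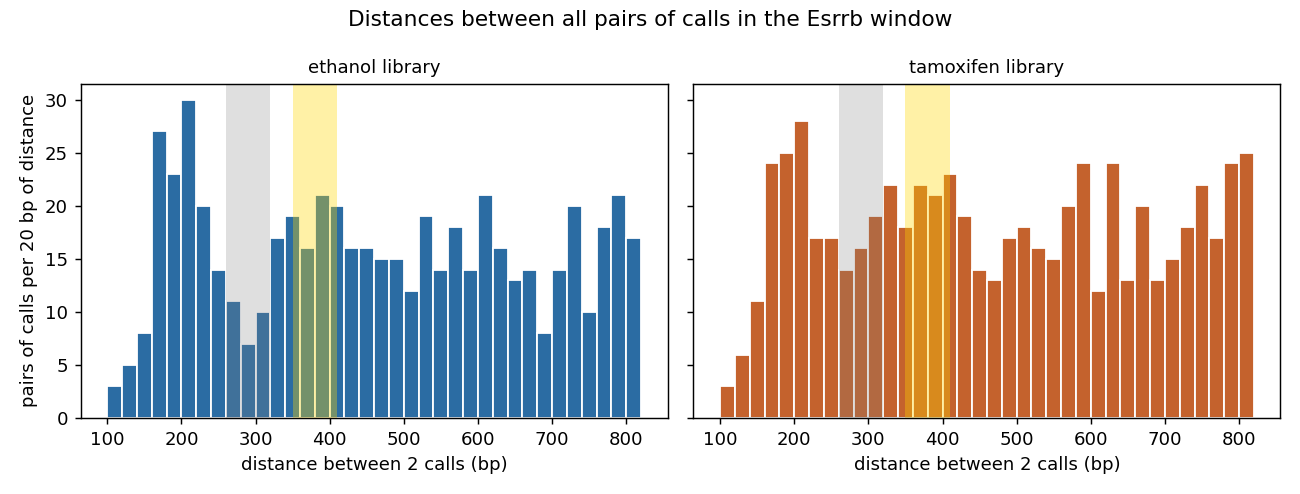
Numbers of pairs of calls in the Esrrb window by the distance between their centres, in 20 bp steps, for ethanol (left) and tamoxifen (right). Grey shading marks 260 to 320 bp (31 and 53 pairs) and yellow 350 to 410 bp (65 and 69 pairs), with the limits included; the dip between the first peaks is deeper in the ethanol library.

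**Figure D5:**
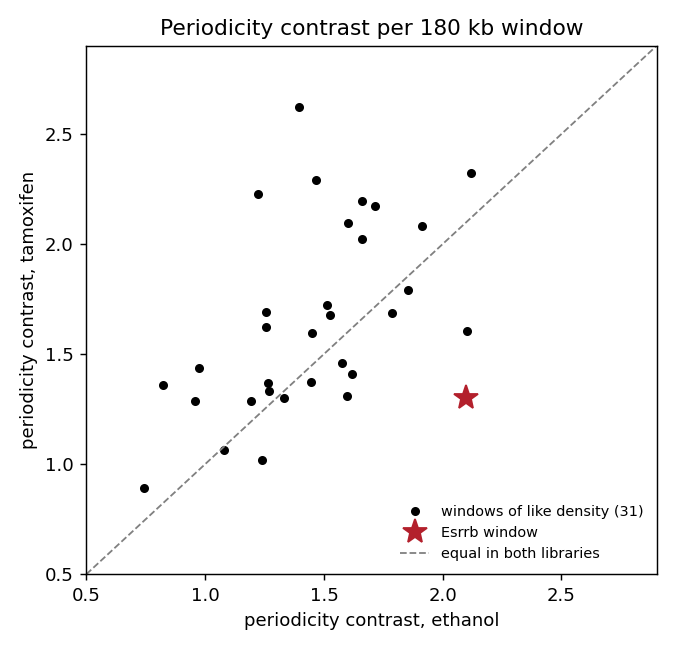
Periodicity contrast of the ethanol library against that of the tamoxifen library for the Esrrb window (star, 2.10 and 1.30) and the 31 windows of like density (black). The dashed line marks equal contrasts; 10 of the 31 windows and the Esrrb window lie below it.

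The 3 windows of chromosome 12 most like the Esrrb window were chosen by ethanol calls, log2 ratio, share within 20 bp and ethanol median score, each in units of its SD over 655 windows. They began at 110190000, 113430000 and 106050000 on mm9, at distances of 0.324, 0.413 and 0.432 SD. They held 367, 408 and 367 ethanol calls and 382, 430 and 377 tamoxifen calls. Their periodicity contrasts were 1.45, 2.00 and 1.26 with ethanol and 1.37, 2.33 and 1.69 with tamoxifen. Genes in these windows are not named, since no annotation of mm9 was used here.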

How the data were processed

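Each library's file, as the authors deposited it, lists nucleosome calls by start, end and a score. Per the labels' protocols, the sequenced DNA was the mononucleosome fraction of a digest with 12 U of MNase. The submitters' processing notes name Bowtie 0.12.9 and mm9. Read depth is unknown, and the caller with its score is not given in the sources used here. In both lists the deposited score ran from 50.1 to 3250. Positions are those of the files, on a 10 bp grid, and the centre of a call is (start + end)/2. Calls do not overlap. The number of calls may depend on read depth, which was not tested.

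From these lists, calls, scaled ratios, distances, arrays and pairs were counted in the Esrrb window and in 673 whole windows of 180 kb on chromosome 12, of which 655 had at least 20 calls. Intervals are exact Poisson (calls), Clopper-Pearson (ratios), Wilson (shares), binomial order statistics (medians) and Poisson on a log scale (contrasts). Bins of 10 kb were compared at 1.5-fold where both libraries together had at least 10 scaled calls. Named by rule were the 5 highest-scoring calls of each library, the 5 highest without a call of the other within 100 bp, the 3 longest distances, every array, the 3 highest and lowest bins and the 3 most similar windows. The locus, measures and rules were chosen with earlier results of these data known. Runs of calls in 1 library, score classes and the comparison of neighbouring windows were added later. The counting procedures were tested on simulated data. Promoter sequences came from the RefSeq table of GRCm38.p6. Versions were Python 3.11.15, scipy 1.17.1, numpy 2.4.6, matplotlib 3.10.9 and pandas 2.3.3.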

Additional observations from a re-analysis of the deposited data

How the results depend on the processing

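The log2 ratio of calls at Esrrb, -0.05, stayed within its counting interval under its 4 alternatives but had no settled sign: it was -0.14 in the upper part of each list, from the median score up, and 0.02 when the tamoxifen list was cut to as many of its highest-scoring calls as the ethanol list holds. Taking the upper part of each list leaves fewer calls by construction. It gave 244 ethanol and 241 tamoxifen calls, median distances of 530 and 517.5 bp, and 44.3% of ethanol calls shared within 20 bp. The share followed its limit by construction, with 34.3% of ethanol and 32.5% of tamoxifen calls within 10 bp and 65.7% and 62.1% within 40 bp. Arrays of at least 3 calls held 71 ethanol and 76 tamoxifen calls, which reverses the order of 29 and 25. The ratio of periodicity contrasts, 0.621, was 0.756 with pairs 340 to 430 over 240 to 330 bp apart, where 1 of the 31 windows of like density was at or below Esrrb. It was 0.710 for the shortened tamoxifen list and 1.01 in the upper part of each list, the last 2 settings being added after the data were seen, and the cause was not tested. Read depth is unknown, and the number of calls limits every value of a single window. No paired analysis was possible because there is 1 library for each treatment.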
